A study of Mus musculus with 4 samples.

Results

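The locus of Shh on mouse chromosome 5 was examined through 5 genes, Shh, Rnf32, Lmbr1, Nom1 and Mnx1, out of 22380 protein-coding genes of the annotation. The genes were chosen by name, and the bins were those from 1 Mb before the first gene body to 1 Mb after the last. This gave 77 of the 3814 chromosome 5 bins of 40 kb (mm9, chr5:27760001-30840000), and both matrices kept all of them. Hi-C, a count of how often distant stretches of DNA are ligated together in fixed nuclei, had been done on male mouse embryonic stem cells (mESCs) of 2 groups, WT and Firre KO, with HindIII as the restriction enzyme. The Firre KO allele was made as a deletion of the Firre long non-coding RNA locus on the X chromosome, far from Shh. By the study's methods the WT cells were the N3 line in 2i medium, while the Firre KO cells were kept with irradiated feeder fibroblasts in 2i medium and depleted of feeders before use. Genotype and culture, and possibly cell line, thus cannot be told apart here, and no label gives the age or passage of the cells. Each group had 2 libraries, technical duplicates by the methods, which the authors pooled into 1 matrix. No difference below therefore has a replicate check, no test was run, and each interval is a 95% one that covers counting error alone.

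Read pairs numbered 65611035 for WT and 46635652 for the other matrix, with 16.1% and 35.6% of them between chromosomes. The bin that lies wholly inside Firre had 1550 read pairs within the X chromosome for WT and 1144 for the other matrix, against bin medians of 422.5 and 362.5. The bin stood above the median in both, so these counts did not show the deletion and did not bear out the label. The second matrix is therefore called the Firre KO-labelled matrix. Within the window, WT had 59410 read pairs and the Firre KO-labelled matrix had 31275. At the 8 bins that hold the members, read pairs with other chromosomes made up 14.6% to 19.2% in WT and 28.5% to 38.4% in the Firre KO-labelled matrix.

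Shh encodes Sonic hedgehog, a secreted signal that patterns the limb bud, neural tube and other embryonic tissues. Its receptor Patched holds back Smoothened until the ligand binds, after which the Gli transcription factors act on target genes. Shh is known for enhancers spread over a large gene desert, and its limb enhancer lies in intron 5 of Lmbr1, another gene at the far end of that desert. A topologically associated domain (TAD) is a stretch of chromosome whose bins contact each other more than they contact bins outside, and loops between TAD borders often join CTCF sites that point toward each other. Embryonic stem cells are not limb cells, and expression of Shh was not analysed here.

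Shh lies on the minus strand at chr5:28783355-28793641, in 1 bin (28760001 to 28800000), and transcription runs away from the desert. Rnf32, a RING finger gene on the plus strand, lies at chr5:29522532-29552064, and its start is 728.891 kb from that of Shh. Lmbr1, on the minus strand, spans 148577 bp at chr5:29556354-29704930 and overlaps 5 bins. Its annotated transcript has 17 exons, and intron 5 (29619490 to 29650341) falls in the bins that begin 840 and 880 kb from the start of the Shh bin. Nom1, which encodes a nucleolar protein, lies on the plus strand at chr5:29761204-29780046. Mnx1, a homeobox gene of motor neuron and pancreas development, lies on the minus strand at chr5:29799578-29805059. At 40 kb, Rnf32 and the end of Lmbr1 shared the bin from 29520001, and Nom1 and the end of Mnx1 shared the bin from 29760001, so their contacts there cannot be told apart.

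The sequences that bear on the values that follow are given first. HindIII cuts at AAGCTT, and the fragment that carries the Shh start runs over 4163 bp at chr5:28789545-28793707. These are its sites, with the recognition sequence in capitals, inside the gene body and just upstream of the start.
HindIII site in Shh, chr5:28789524-28789569, plus strand: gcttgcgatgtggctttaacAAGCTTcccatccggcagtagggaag
HindIII site upstream of Shh, chr5:28793687-28793732, plus strand: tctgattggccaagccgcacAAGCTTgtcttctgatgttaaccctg

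The other sequence is the CTCF core consensus, a 12-letter motif searched on both strands, which 17.1% of 59855 autosomal bins held at least once. In the window, 18 of 77 bins (23.4%) held 21 matches, but the desert between the Shh and Rnf32 bins held 1 match in 18 bins (5.56%). The matches in and around the ends of the Shh domain are as follows, each read on its own strand with the match in capitals.
Shh bin, chr5:28777891-28777942, plus strand, intergenic: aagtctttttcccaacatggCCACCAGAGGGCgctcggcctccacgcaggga
Desert bin 80 kb from the Shh bin, chr5:28845780-28845831, minus strand, intergenic: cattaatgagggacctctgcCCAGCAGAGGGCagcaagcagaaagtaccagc
Lmbr1 intron 15, bin at 800 kb, chr5:29574842-29574893, plus strand: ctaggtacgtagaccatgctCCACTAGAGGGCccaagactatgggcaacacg
Lmbr1 intron 4, bin at 880 kb, chr5:29662558-29662609, minus strand: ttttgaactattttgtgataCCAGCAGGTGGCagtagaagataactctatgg
Bin 80 kb before the Shh bin, chr5:28714916-28714967, minus strand, in the Rbm33 gene body: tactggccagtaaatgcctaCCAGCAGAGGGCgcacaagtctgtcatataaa
Bin 160 kb before the Shh bin, chr5:28620708-28620759, plus strand, intergenic: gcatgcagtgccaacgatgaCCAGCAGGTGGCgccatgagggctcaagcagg
The plus-strand match in the Shh bin and the minus-strand match in Lmbr1 intron 4 point toward each other. Other matches shown do so too, among them that of the Shh bin with that of the desert bin, and those of Lmbr1 introns 15 and 4. Whether any of these pairs bears on the contacts was not tested. A match is a stretch of letters and no measurement of CTCF, and the bins of the right borders described below, from 29680001 and 29760001, held none.

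Among the members, the highest values in both matrices were those of Shh with Lmbr1 and with Rnf32, whose bin is also the end of Lmbr1, and the intervals of these pairs overlapped. Contacts are given as observed over expected, the mean of the corrected values over the chromosome 5 mean at the same distance, so that 1 is the chromosome's average. Between the Shh bin and the 5 Lmbr1 bins, 760 to 920 kb away, the value was 4.88 (4.20 to 5.64, 207 read pairs) in WT. In the Firre KO-labelled matrix it was 6.08 (5.13 to 7.17, 155 read pairs). With uncorrected read pairs the levels were 8.28 and 9.80. The log2 ratio of the matrices was 0.32, and its interval, -0.00 to 0.64, held 0. Of autosomal places with the same shape and distance, 28.6% had a ratio as high. The ratio of Shh to Lmbr1 stayed between 0.15 and 0.41 over 8 alternatives. In 1 of them, with the mean level of contacts between chromosomes subtracted, it was 0.32. Whether the share of such contacts bears on it was not tested.

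Few places in the genome had contacts as high. Of 56557 autosomal places with the same shape and distance, 20 (0.0354%) were as high in WT and 21 (0.0371%) in the Firre KO-labelled matrix, the Shh locus among them. A value of at least 2 in both matrices was found at 3.44% of these places. Neighbouring places share bin pairs and are not independent.

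On the other side of Shh, the bins at the same distances from it held few read pairs. Their value was 0.471 (0.297 to 0.727, 26 read pairs) in WT and 0.213 (0.0846 to 0.493, 7 read pairs) in the Firre KO-labelled matrix. Contacts of Shh with Lmbr1 thus exceeded those with the mirrored bins 10.4-fold (6.54 to 16.8) in WT and 28.5-fold (12.1 to 72.9) in the Firre KO-labelled matrix, where the lower level rested on 7 read pairs. The mirrored bins were chosen after the values were seen, and no autosomal share was computed for this fold. They lay outside the Shh domain described below. They also lay in or past a further boundary, 720 kb before the Shh bin in WT and 760 kb before it in the Firre KO-labelled matrix.

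**Figure D1:**
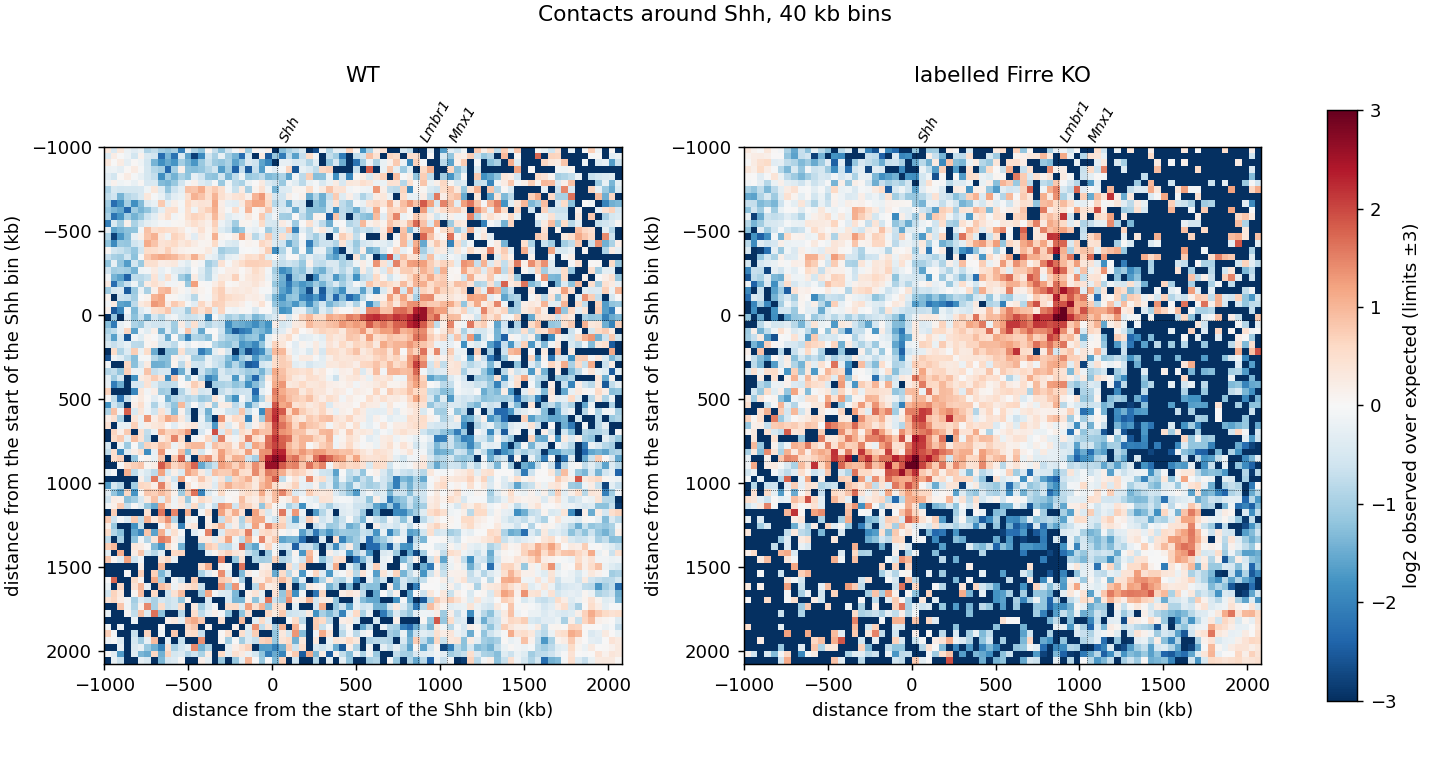
Contact maps of the 77 bins in WT (left) and the Firre KO-labelled matrix (right). Both axes give the distance from the start of the Shh bin in kb, colour gives log2 observed over expected, clipped at 3 in both directions with empty bin pairs at the lowest colour, and dotted lines mark the middles of Shh, Lmbr1 and Mnx1. The square between Shh and Lmbr1 is filled in both, and its corner, where Shh meets Lmbr1, is among the darkest red. Empty bin pairs are more common on the right, where the window held 31275 read pairs against 59410.

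Along the desert, observed over expected of the Shh bin rose with distance in both matrices, with the highest values over Lmbr1 intron 5. In WT they were 1.33 (1.19 to 1.49) in the part of the desert nearest Shh, 2.22 (1.98 to 2.49) in the middle and 4.14 (3.62 to 4.72) in the part nearest Rnf32. In the Firre KO-labelled matrix the same parts had 1.10 (0.937 to 1.29), 1.89 (1.58 to 2.25) and 3.37 (2.76 to 4.09). The intervals within each matrix did not overlap from part to part, while the log2 ratios of the matrices, from -0.30 to -0.24, each had an interval that held 0.

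Among the 68 bins of the window at least 200 kb from the Shh bin, the bins with intron 5 ranked 1 and 2 in both matrices. The bin at 840 kb had 6.65 in WT and 7.84 in the Firre KO-labelled matrix, and the bin at 880 kb, with the minus-strand CTCF match shown above, had 6.02 and 9.0. Their order was not the same in the matrices, and each rested on fewer than 40 read pairs. The bins at 840 and 880 kb taken as 1 block had 6.34 (4.99 to 7.93, 76 read pairs) in WT and 8.42 (6.54 to 10.7, 68 read pairs) in the Firre KO-labelled matrix. The log2 ratio was 0.41 (-0.08 to 0.90).

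Past intron 5 the values dropped, though not steadily in either matrix. The last Lmbr1 bin, at 920 kb, had 2.74 in WT and 4.57 in the Firre KO-labelled matrix. The bin after it, at 960 kb, had 3.53 and 3.04. In the Firre KO-labelled matrix the bins at 1040, 1080 and 1200 kb had 1.77, 2.28 and 2.47, on 10, 14 and 8 read pairs. The bins of Nom1 and Mnx1 had 1.67 (1.12 to 2.42) and 2.23 (1.49 to 3.22), and the next 480 kb beyond Mnx1 had 1.12 (0.837 to 1.55) and 0.939 (0.649 to 1.49). The contacts of Shh thus fell back to the chromosome average within this distance, with overlapping intervals of the matrices in each stretch. These stretches too were chosen after the values were seen.

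**Figure D2:**
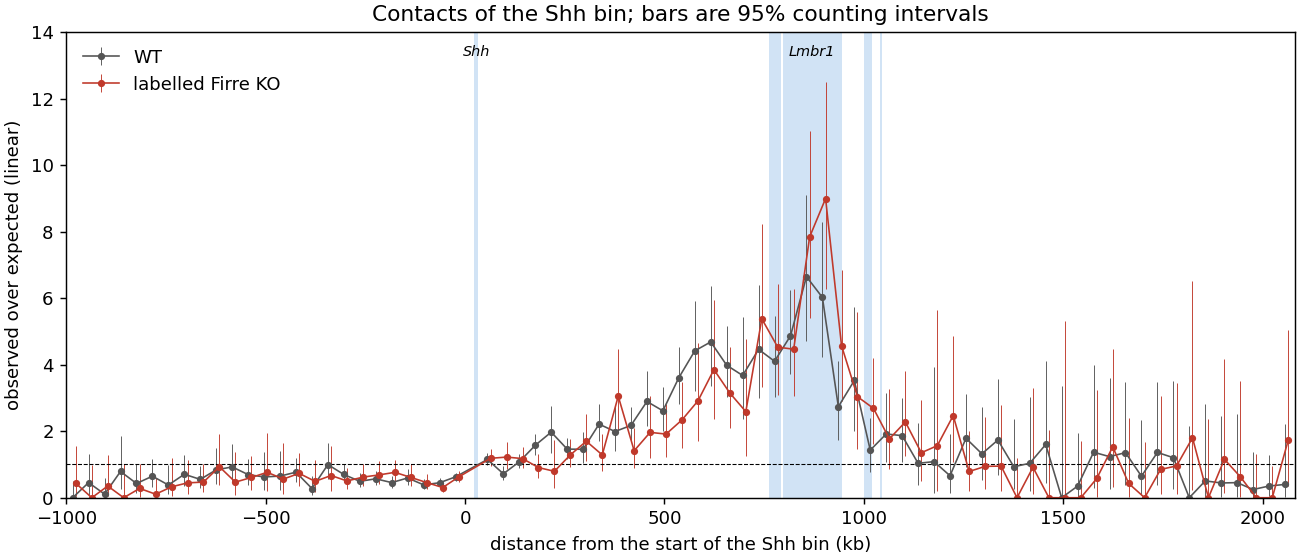
Observed over expected of the Shh bin with each other bin of the window (y axis, linear) by distance from the start of the Shh bin in kb (x axis), with 95% counting intervals. Grey is WT, red is the Firre KO-labelled matrix, blue bands are Shh, Rnf32, Lmbr1, Nom1 and Mnx1, and the dashed line is the chromosome average. Both lines climb through the desert to a peak at 840 and 880 kb and stay near or below 1 on the other side of Shh.

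The peak was also set against the desert beside it, in a comparison chosen after the profile was seen. The intron 5 bins exceeded the desert nearest Rnf32 by 0.61 (0.22 to 0.99) on the log2 scale in WT and by 1.32 (0.86 to 1.77) in the Firre KO-labelled matrix. The difference of 0.71 (0.11 to 1.30) was made up of both parts, of which neither had an interval that left out 0 by itself.

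On the Shh side, the highest value was at the Shh bin in both matrices, with intervals that overlapped that of the bin 40 kb before it. Seen from the intron 5 bins, the value in WT was 6.34 (4.99 to 7.93) at the Shh bin, 5.52 (4.10 to 7.29) at the bin 40 kb before it and 4.62 (3.31 to 6.27) at the bin 40 kb after it, and 1.57 and 3.0 at 120 kb before and after. In the Firre KO-labelled matrix the values were 8.42 (6.54 to 10.7), 6.68 (4.89 to 8.92) and 4.07 (2.58 to 6.12), with 3.62 and 2.55 at 120 kb. At 120 kb before the Shh bin, in the bin where the neighbouring gene Rbm33 starts, the log2 ratio was 1.21 (0.19 to 2.29), on 13 and 23 read pairs. It was picked after the values were seen, as the 1 bin of the 7 from 120 kb before to 120 kb after whose interval left out 0, and 2 of the other 6 had a negative ratio.

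Of the 10 pairs of members, those with Shh were above the chromosome average and those without it were not, although the interval of Shh to Nom1 in WT held 1 and the second statement held for the corrected values alone. A value of at least 2 was reached by 2 pairs in WT and by 4 in the Firre KO-labelled matrix, where 4.31% and 6.73% of the same shapes over the autosomes reached it. Shh to Rnf32, at 760 kb, had 4.10 (3.02 to 5.46, 47 read pairs) in WT and 4.53 (3.08 to 6.43, 31 read pairs) in the Firre KO-labelled matrix. Shh to Nom1 had 1.43 (0.783 to 2.40, 14 read pairs) and 2.69 (1.62 to 4.20, 19 read pairs), and Shh to Mnx1 had 1.67 (1.12 to 2.42) and 2.23 (1.49 to 3.22), with 29 read pairs in each matrix. These pairs are not all separate contacts, since Rnf32 shares a bin with Lmbr1 and Nom1 shares one with Mnx1. The other Mnx1 bin, at 1040 kb, had 1.92 in WT and 1.77 in the Firre KO-labelled matrix, on 15 and 10 read pairs.

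The pairs without Shh lay between 0.521 and 0.983 in both matrices, but between 0.908 and 2.29 with uncorrected read pairs, which keep the coverage of each bin. Lmbr1 and its neighbour Rnf32 had 0.823 (0.722 to 0.937) in WT and 0.829 (0.691 to 0.991) in the Firre KO-labelled matrix. Lmbr1 and Nom1 had 0.584 (0.506 to 0.673) and 0.555 (0.456 to 0.672), and 94.1% and 89.96% of autosomal places of that shape were as high. Lmbr1 and Mnx1 had 0.636 (0.571 to 0.707, 411 read pairs) and 0.521 (0.444 to 0.609, 190 read pairs). Their log2 ratio, -0.29 (-0.56 to -0.01), was the only one of the 10 whose interval left out 0, and with uncorrected read pairs it was -0.26 (-0.53 to 0.01) and held 0. Of the autosomal places of that shape, 22.9% had a ratio as low.

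A log2 ratio past 1 was the rule for calling a pair changed. None of the 10 pairs passed it, against 7.63% of the same shapes over the autosomes that were higher in the Firre KO-labelled matrix and 14.2% that were lower. The nearest was Shh to Nom1, at 0.91 (-0.14 to 1.99), which passed 1 with uncorrected read pairs. Of the autosomal places of that shape, 21.4% had a ratio as high. The level of this pair was reached by 23.0% of them in WT and 8.37% in the Firre KO-labelled matrix.

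**Figure D3:**
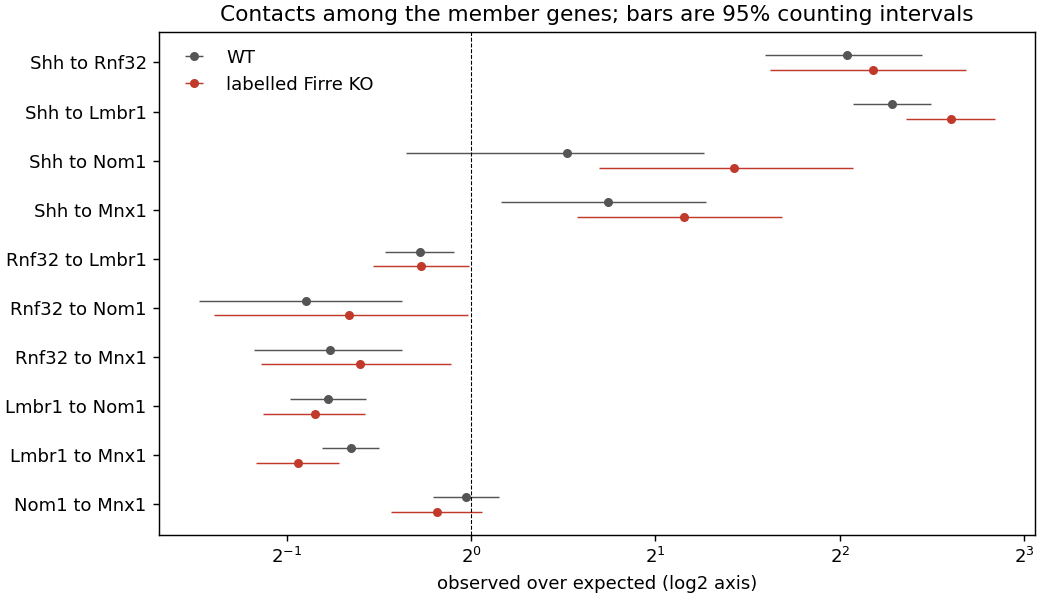
Observed over expected (x axis, log2 spaced) of the 10 pairs of members (y axis), with 95% counting intervals, in WT (grey) and the Firre KO-labelled matrix (red). The dashed line is the chromosome average. The 4 pairs with Shh lie to its right and the other 6 lie to its left, and the intervals of the matrices overlap in every pair.

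With the study's settings, the domain between Shh and Lmbr1 was called in both matrices, with borders that lay in different bins. Borders were called with the insulation score, the log2 of the mean contact between the 480 kb before a bin and the 480 kb after it, over the chromosome mean, which is low where few contacts cross. In WT the borders were the Shh bin itself, with a strength of 1.84, and the last Lmbr1 bin, 920 kb away, with a strength of 1.45. Of 2583 autosomal WT boundaries, 5.77% were as strong as the first and 16.0% as the second. In the Firre KO-labelled matrix they were the bin 160 kb before the Shh bin, with a strength of 0.882, and the bin of Nom1 and Mnx1 at 1000 kb, with a strength of 2.27. Of its 2421 autosomal boundaries, 67.5% and 19.2% were as strong. Its left border was no sharp low point, with a score of -0.22 against -0.25 at the bin 40 kb before the Shh bin. The positions of both borders depended on the settings. With a square of 240 kb the left border was 40 kb before the Shh bin in WT and in the Shh bin in the Firre KO-labelled matrix. With the plain mean it was 40 and 80 kb before that bin. With a delta over 320 kb on each side no left border was called in the Firre KO-labelled matrix. The right border was at 920 kb in WT and 960 kb in the Firre KO-labelled matrix with the 240 kb square and with the plain mean, and at 960 and 1000 kb with the wider delta, so 1 bin apart in each, while with smoothing over 80 kb it was at 920 and 1040 kb. With a square of 960 kb WT had a border on neither side, and the Firre KO-labelled matrix had the right one alone.

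The window had 4 boundaries in each matrix, and 2 of the 4 were shared within 1 bin, against 46.1% of all autosomal WT boundaries and 49.2% of those of the Firre KO-labelled matrix. The shared ones lay outside the Shh domain. The first was near Dpp6 and Paxip1, at 720 kb before the Shh bin in WT and 760 kb before it in the Firre KO-labelled matrix. Of the autosomal boundaries of each matrix, 13.5% in WT and 57.2% in the Firre KO-labelled matrix were as strong as this one. The second was at 1720 kb in both, over Hadha and Hadhb. It was weak in WT, with a strength of 0.423, where 82.1% were as strong, against 55.9% in the Firre KO-labelled matrix. The count of shared boundaries was 4 with the plain mean of the square, 1 when the same bin was required and 0 with a square of 960 kb.

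At the WT left border, the Shh bin, insulation was weaker in the Firre KO-labelled matrix. The score of the Shh bin was -0.85 in WT and -0.16 in the Firre KO-labelled matrix, a difference of 0.69. With the plain mean of the square, for which an interval can be given, the difference was 0.59 (0.46 to 0.73). The Shh bin was chosen as a low point of WT, which by itself favours a positive difference. For the score itself, 4.35% of 2576 autosomal WT boundaries had a difference as high as 0.69, 10.4% had one of at least 0.5, and the median was -0.13. Those boundaries were also low points of WT but were not matched to the Shh bin for strength, and 5.77% of autosomal WT boundaries were as strong. At the bin 160 kb before the Shh bin, the left border of the Firre KO-labelled matrix, the scores were -0.54 and -0.22, a difference of 0.32 that turned to -0.09 (-0.21 to 0.03) with the plain mean.

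Contacts across the Shh bin differed in the same direction. Between the 480 kb on each side, leaving out the Shh bin, observed over expected was 0.556 (0.516 to 0.604, 1249 read pairs) in WT and 0.860 (0.797 to 0.935, 1074 read pairs) in the Firre KO-labelled matrix. The log2 ratio was 0.63 (0.47 to 0.79), between 0.59 and 0.72 over 6 alternatives. Of 2577 autosomal WT boundaries, 4.70% had a ratio as high, 0.349% had one of at least 1, and the median was -0.11. The choice of the Shh bin as a low point of WT by itself favours a ratio above 0, and these boundaries were not matched to it for strength. The bins before Shh hold Rbm33, Cnpy1, En2 and Insig1 among others, of which En2 is a homeobox gene of midbrain and hindbrain development. The share of read pairs between chromosomes differed between the matrices as well. With 1 mean corrected level between autosomes subtracted per matrix, 0.00566 in WT and 0.00902 in the Firre KO-labelled matrix, the ratio was 0.63. Whether that share bears on the ratio was not tested. Across the left border of the Firre KO-labelled matrix the values were 0.769 (0.724 to 0.820) in WT and 0.816 (0.753 to 0.891) in the other matrix, with a log2 ratio of 0.09 (-0.06 to 0.24).

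At the right border, insulation was stronger in the Firre KO-labelled matrix. The score of the last Lmbr1 bin was -0.81 in WT and -1.32 in the Firre KO-labelled matrix, a difference of -0.50, or -0.37 (-0.54 to -0.20) with the plain mean. It was -0.12 with a square of 240 kb and -1.61 with one of 960 kb. The difference of -0.50 was common, since 27.3% of autosomal WT boundaries had one as low and 27.4% had one of at most -0.5. At the bin of Nom1 and Mnx1 the scores were -0.70 and -2.00, a difference of -1.30. This bin was chosen as a low point of the Firre KO-labelled matrix, which by itself favours a negative difference. Of the 2421 autosomal boundaries chosen in the same way, 13.2% had a difference as low, and their median was -0.37. The interquartile mean there rested on sparse squares, with 14 of 144 bin pairs empty in WT and 39 in the Firre KO-labelled matrix, and the plain mean gave -0.58 (-0.74 to -0.41).

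Contacts across the right border were 0.530 (0.494 to 0.571, 1268 read pairs) in WT and 0.358 (0.322 to 0.4004, 558 read pairs) in the Firre KO-labelled matrix, a log2 ratio of -0.57 (-0.75 to -0.38). Of the autosomal WT boundaries, 18.1% had a ratio as low and 6.09% had one of at most -1. The ratio was near 0 close to the border, at -0.03 (-0.35 to 0.31) with windows of 240 kb.

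**Figure D4:**
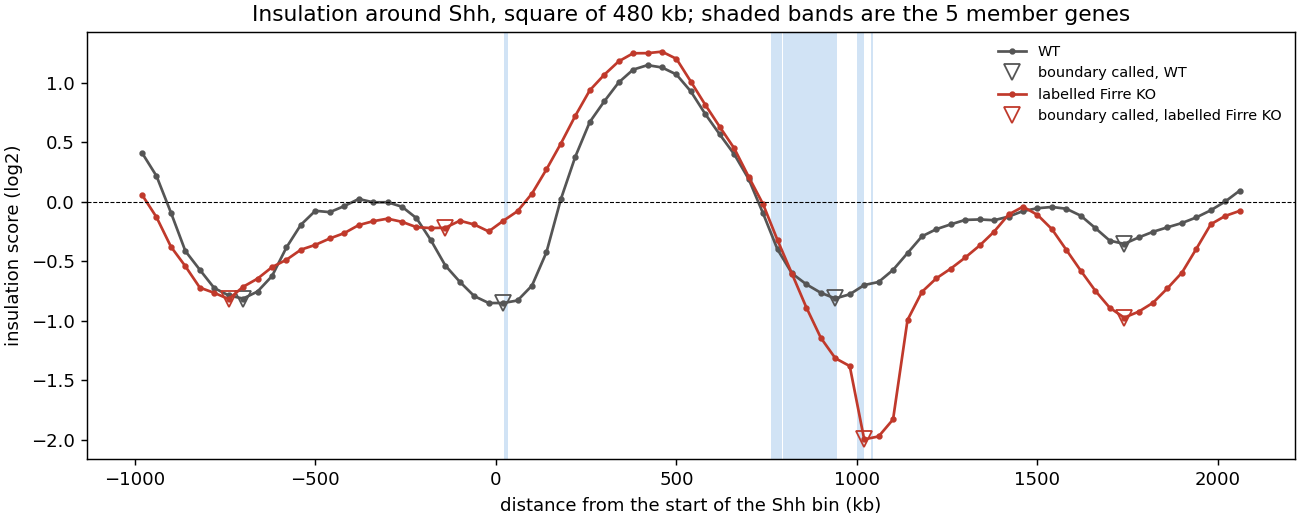
Insulation score (y axis, log2) of the bins of the window by distance from the start of the Shh bin in kb (x axis), in WT (grey) and the Firre KO-labelled matrix (red), with called boundaries as triangles and the 5 genes as blue bands. The WT line dips to -0.85 at Shh where the red line stays at -0.16, both rise above 1 in the desert, and the red line falls to -2.00 at Nom1 and Mnx1 where the grey line is at -0.70.

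The differences at the borders were not spread evenly. When the square across each border was cut into 4 smaller squares of 240 kb, 3 of the 4 at the left border had a log2 ratio between 0.72 and 0.85, each with an interval above 0, as in 18.6% of such squares over all autosomal WT boundaries. Ratios as high as theirs were found at 1.74% to 6.05% of boundaries, and the squares of 1 boundary are not independent. The one that joined the far bins before Shh with the desert nearest Shh had 0.10 (-0.25 to 0.48). At the right border the small squares that reached the first 240 kb past the border had -0.03 (-0.35 to 0.31) and -0.16 (-0.48 to 0.19). Those that reached the next 240 kb, with the end of Ube3c and Dnajb6, had -1.07 (-1.49 to -0.63, 280 and 84 read pairs) and -1.46 (-2.05 to -0.86, 160 and 39 read pairs). A ratio of at most -1 was found in 9.51% of such squares over all boundaries, and 8.49% and 6.82% of boundaries had ratios as low as these.

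**Figure D5:**
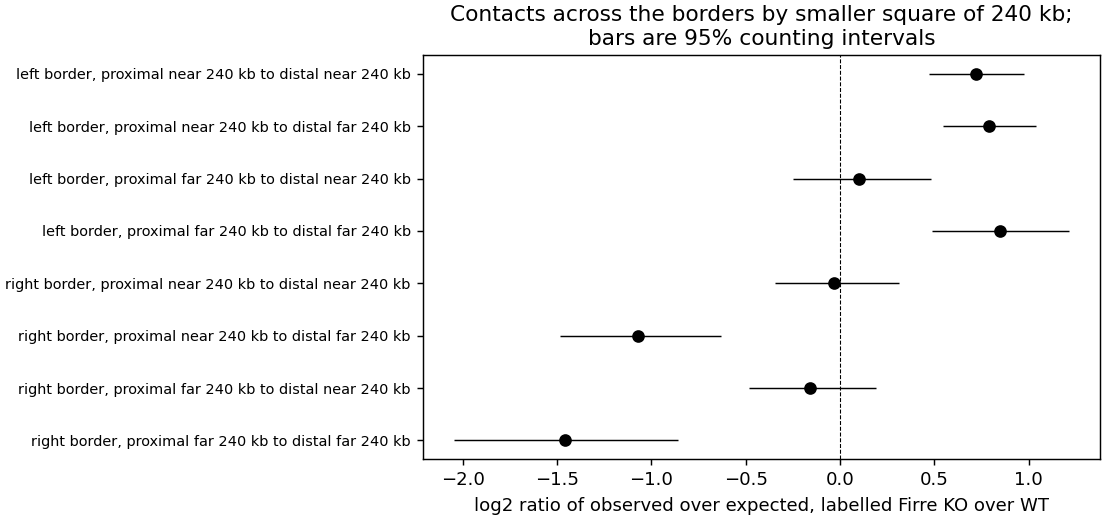
Log2 ratio of observed over expected, the Firre KO-labelled matrix over WT (x axis), for the 4 smaller squares of 240 kb that make up the square across each border (y axis), with 95% counting intervals and a dashed line at 0. Proximal and distal are the sides of lower and higher coordinate. The whole interval lies to the right of 0 in 3 of the 4 squares of the left border, and to the left of 0 in the 2 squares of the right border that hold the far distal bins.

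Contacts inside the domain were high in both matrices. Over the 253 bin pairs of the WT domain that were at least 80 kb apart, observed over expected was 1.70 (1.65 to 1.75, 9463 read pairs) in WT and 1.80 (1.74 to 1.87, 5072 read pairs) in the Firre KO-labelled matrix. Of 2538 autosomal WT TADs, 0.670% were as high in WT and 2.44% in the Firre KO-labelled matrix, where the medians were 1.16 in both. Those TADs had 5 to 75 bins and were not matched to this one for size. Size may matter, since the domain had 1.90 in WT and 2.01 in the Firre KO-labelled matrix over bin pairs at least 200 kb apart. The log2 ratio was 0.08 (0.02 to 0.15), and 34.4% of TADs had one as high. It was -0.059 with uncorrected read pairs, so no direction was given to it, and 0.0394% of TADs had a ratio past 1 in either direction.

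The middle of the domain also stood at the upper end of the insulation scores. The highest score was 1.15 in WT, 400 kb from the start of the Shh bin, and 1.26 in the Firre KO-labelled matrix, at 440 kb. Of the autosomal bins, 0.0698% and 0.358% were as high. Each of the bins at 400 and 440 kb was chosen as the highest of its matrix, while the autosomal bins were not chosen. That by itself favours a small share.

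Each member had more read pairs on 1 side than on the other. For each gene, the share of its read pairs within 1 Mb that lay toward higher coordinates was counted. Shh had 75.1% (73.1 to 77.1) of them on the desert side in WT and 73.8% (70.9 to 76.6) in the Firre KO-labelled matrix. Rnf32 and Lmbr1, at the far end of the desert, had the opposite bias, with shares of 40.01% (37.4 to 42.7) and 32.5% (31.2 to 33.9) in WT. In the Firre KO-labelled matrix these were 36.6% (33.1 to 40.3) and 24.8% (23.0 to 26.5).

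Nom1 and Mnx1 leaned away from the desert. Nom1 had 60.4% (58.0 to 62.8) in WT and 60.4% (57.1 to 63.8) in the Firre KO-labelled matrix, and Mnx1 had 59.9% (58.0 to 61.7) and 61.0% (58.3 to 63.5). The side with the majority of read pairs thus changed between Lmbr1 and Nom1 in both matrices. These shares moved with the way of counting, while each member kept its side. Within 500 kb, Rnf32 was near even, with 46.99% in WT and 47.1% in the Firre KO-labelled matrix, and Shh had 70.7% and 65.6%. With corrected values, Nom1 had 54.9% and 54.2% and Mnx1 had 55.3% and 56.2%. The intervals of the matrices did not overlap for 1 member, Lmbr1, with a difference of -7.77 percentage points. Over the autosomes this was so for 25.4% of single bins and 57.5% of runs of 5 bins, the length of Lmbr1.

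The other genes of the Hedgehog pathway lie elsewhere in the genome and were described by the same score. Of a list of 22 genes, Shh included, 21 were found in the annotation. A boundary lay within 1 bin of the start of 4 of them in WT and 3 in the Firre KO-labelled matrix, against 18.6% and 19.1% of 20612 autosomal protein-coding genes. Only Sufu, an inhibitor of the Gli factors, had one in both, against 9.20% of all genes. Within 2 bins the counts were 9 in WT, 5 in the Firre KO-labelled matrix and 5 in both, against 29.8%, 30.3% and 18.9% of all genes.

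A boundary in 1 matrix alone was found at 5 of the 21 genes, against 3971 of 20612 autosomal protein-coding genes. Of the 4 named here, some had it in WT and some in the Firre KO-labelled matrix. Shh and Kif7 (a ciliary kinesin) had one in WT, and Gpr161 (a ciliary receptor that restrains the pathway) and Iqce (a ciliary partner of Evc and Evc2) had one in the Firre KO-labelled matrix. The score of Kif7 was -0.75 in WT and -1.32 in the Firre KO-labelled matrix. Gpr161 had -0.61 and -1.44, and Iqce had -1.25 and -2.27. Of these 4, Shh was the one whose score was higher in the Firre KO-labelled matrix.

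The score differed by at least 0.5 upward at 3 genes, Shh, Evc and Evc2, and by at least 0.5 downward at 5. Evc and Evc2, which are ciliary genes of the pathway, start in the same bin, with -0.70 and 0.23, so the 3 genes are 2 places. Over all autosomal genes 3.05% differed upward and 31.7% downward. The median difference was -0.15 for the list and -0.26 for all genes.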

How the data were processed

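Hi-C libraries of male mESCs were made with HindIII. Per the study's methods and the submitters' processing notes, the authors combined both libraries per group, mapped reads to mm9, and used HiC-Pro 2.7.8 to filter, bin (40 kb) and iteratively correct them. What was deposited is a corrected contact signal per bin pair, scaled so that every kept bin sums to 1 common total, and the deposited bin tables give the bin numbers. Iterative correction scales up bins with few reads, so a deletion or low coverage need not show in the signal. The signal equals whole read pairs times 1 weight per bin; weights and read pairs were recovered, and 100% of entries came out within 0.05 of a whole number. Chromosome lengths matched the mm9 reference, and genes came from the GENCODE annotation of that build.

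Observed over expected was averaged over bin pairs, with weighted-Poisson gamma intervals. Ratios combined these by square-and-add, and shares had exact Clopper-Pearson intervals. PCR reads lacked molecular identifiers and need not be separate molecules, so intervals cover counting error only. Insulation used an own implementation with the study's settings (square 480 kb, delta span 320 kb, smoothing 160 kb, interquartile mean, strength above 0). The left and right borders were the strongest WT boundaries within 200 kb of the Shh bin and of Lmbr1. Backgrounds were the same measure at all autosomal places, WT boundaries, WT TADs of 5 to 75 bins, or gene start bins. Members and lists were chosen with earlier results of these data known. The genes named were the 5 members, other protein-coding genes of the window by position, and, of the Hedgehog list, those with a boundary in 1 matrix only, of which 1 is not reported here; Sufu, Evc and Evc2 were named after their values were seen, as was the choice among the CTCF matches outside the border bins. Alternatives changed the correction, the expected value, the averaging, the windows, the square and the borders. Scripts used Python 3.11.15, numpy 2.4.6, scipy 1.17.1 and pandas 2.3.3, and were tested on simulated data.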

Additional observations from a re-analysis of the deposited data

How the results depend on the processing

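Over 105 alternatives, 70 values kept their direction and stayed within the counting interval of the reported value (for counts, within 1.5 times of it; for insulation, within the width of the plain mean's interval), 34 moved and 1 reversed. All 8 alternatives of the Shh to Lmbr1 ratio and all 6 each of the contacts and the insulation at the left border stayed within those intervals, although the Shh to Lmbr1 ratio was 0.15 with 1 more bin on each side of Shh. The ratio of contacts within the domain was -0.059 with uncorrected read pairs, a reversal, and 0.18 with the borders of the Firre KO-labelled matrix. The ratio across the right border was -0.030 with windows of 240 kb. The insulation difference at the right border was -0.12 with a square of 240 kb and -1.61 with one of 960 kb. Shared boundaries in the window numbered 1 in the same bin, 0 with a square of 960 kb and 4 with the plain mean, an alternative added after the data were seen. With uncorrected read pairs 1 pair of members passed a log2 ratio of 1. When a boundary within 2 bins was counted, 5 of 21 Hedgehog genes had one in both matrices, against 18.9% of all genes. The shares of read pairs by side moved for all 5 members, both within 500 kb and with corrected values, and no member changed its side. The cause of these shifts was not tested. Uncorrected read pairs raised the Shh to Lmbr1 contact itself to 8.28 in WT and 9.80 in the Firre KO-labelled matrix, and it was 4.73 in the latter with 1 more bin on each side of Shh.

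No paired analysis was possible because each group's libraries were pooled in 1 matrix, and for the same reason no library was left out. The depth limits single bin pairs. Contacts of the Shh bin at 1 Mb rested on 14 read pairs in WT and 19 in the Firre KO-labelled matrix on the desert side, and on 0 and 2 on the other side.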
